A study of Mus musculus with 16 samples.

Results

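Heat shock proteins and their J-domain partners were followed in 2 limb muscles of transgenic mice carrying human SOD1 with the G93A change, written SOD1-G93A below, and of non-transgenic mice, written NTg. SOD1-G93A mice are a model of amyotrophic lateral sclerosis, in which motor neurons degenerate. The members were the probe sets annotated with a single gene symbol beginning with Hspa, Hspb, Hspd, Hspe, Hsph, Hsp90 or Dnaj, together with those of Cryab. In all, 71 of the 7729 probe sets in the table met this rule, and they read 46 genes. The small heat shock proteins, taken by name as Cryab and Hspb followed by a number, made up 12 of these probe sets and 7 of the genes.

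Chaperones bind unfolded or damaged proteins, keep them from clumping and help them to refold. Small heat shock proteins hold misfolding proteins without spending ATP, and several of them sit on the contractile apparatus and the intermediate filaments of muscle fibres. HSP70 proteins then fold such clients in cycles driven by ATP, J-domain proteins deliver the clients and start each cycle, HSP110 proteins release the bound nucleotide, and HSP90 proteins finish selected clients. Many of these genes carry a heat shock element, a row of inverted GAA units that is bound by the heat shock factor HSF1 under stress.

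Gastrocnemius, a calf muscle, and triceps, a forelimb muscle, came from 4 SOD1-G93A and 4 NTg mice. All mice were C57BL/6 females of 7 weeks, a stage labelled presymptomatic, so each of the 4 groups holds 4 arrays and the series 16. The sources used here do not give the transgene's promoter or copy number. The labels number the samples as biological replicates 1 to 4 in each group, and equal numbers within a genotype were read as the gastrocnemius and the triceps of a single mouse. Each p-value below measures the spread between samples within groups, pooled over the 4 groups. Apart from the genotype comparison over both muscles, the main tests did not pair the muscles of a mouse.

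Levels are given as log2 signal, 1 value per probe set and array, so that a difference of 1 means a 2-fold change. Whole muscle was measured, so fewer cells of a type and less RNA per cell cannot be told apart. Array medians lay between 7.10 and 7.26. Probe sets with a mean of at most 6.75 over the 16 arrays were left out of the tests, which kept 4637 in all, among them 50 of the 71 members, read from 34 genes. Fibre markers were high in both muscles, but Ckm, the muscle creatine kinase, was lower in 3 triceps arrays, at 12.84 and 13.02 in NTg replicates 1 and 2 and at 12.76 in SOD1-G93A replicate 2, than in the other triceps arrays, which lay between 13.84 and 14.51. Many results that rest on triceps are therefore given with and without these 3 arrays, though not all that move.

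Promoter sequence is shown for Hspb7, Hsph1 and Dnaja2, which were called between the muscles, and for Hspb1, a small heat shock protein that was not called, because heat shock elements are the family's best-known control sequence. The 250 bases before the transcript start were taken from RefSeq on GRCm38.p6, and the capitals mark the motifs GAANNTTC or TTCNNGAA, in which 2 such units face each other. Each motif is its own reverse complement, so a single search covers both strands. The Hspb7 window is chr4:141420529-141420778 on the plus strand, the Hspb1 window chr5:135887669-135887918 on the plus strand, the Hsph1 window chr5:149636337-149636586 on the minus strand, before the first of 2 starts in the table, and the Dnaja2 window chr8:85555362-85555611 on the minus strand.
Hspb7: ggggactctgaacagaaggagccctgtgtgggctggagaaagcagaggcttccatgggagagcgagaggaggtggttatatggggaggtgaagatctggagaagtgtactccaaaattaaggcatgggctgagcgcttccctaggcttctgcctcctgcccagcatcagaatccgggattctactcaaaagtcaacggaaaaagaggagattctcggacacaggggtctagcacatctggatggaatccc
Hspb1: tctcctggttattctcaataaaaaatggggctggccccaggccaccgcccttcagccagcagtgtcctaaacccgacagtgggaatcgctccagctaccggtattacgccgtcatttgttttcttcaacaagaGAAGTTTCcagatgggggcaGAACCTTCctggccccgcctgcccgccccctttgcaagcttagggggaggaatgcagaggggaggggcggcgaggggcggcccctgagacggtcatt
Hsph1: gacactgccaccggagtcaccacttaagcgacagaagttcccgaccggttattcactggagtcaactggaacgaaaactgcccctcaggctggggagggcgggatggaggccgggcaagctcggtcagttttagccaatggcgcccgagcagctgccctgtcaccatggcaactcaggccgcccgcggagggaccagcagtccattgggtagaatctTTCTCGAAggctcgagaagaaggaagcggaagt
Dnaja2: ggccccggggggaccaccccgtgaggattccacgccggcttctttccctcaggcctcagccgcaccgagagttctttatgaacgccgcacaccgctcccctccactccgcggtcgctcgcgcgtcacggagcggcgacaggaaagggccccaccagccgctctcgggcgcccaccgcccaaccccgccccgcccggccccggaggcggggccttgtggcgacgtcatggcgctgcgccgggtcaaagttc

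The Hspb7 and Dnaja2 windows held neither motif. In Hspb1, GAAGTTTC lay 117 to 110 bases and GAACCTTC 97 to 90 bases before the start. In Hsph1, TTCTCGAA lay 33 to 26 bases before the start. RefSeq promoters were matched for 37 of the 46 member genes, and Cryab, Hspb2 and Hspa8 were not among them. Either motif was present in 14 of the members' 51 promoter windows (27.5%), against 12.8% of 32851 windows of the same length over all genes. These are matches of letters, and binding was not measured.

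The comparison of gastrocnemius with triceps, averaged over both genotypes, is the design's second factor. Hspb7, a small heat shock protein of heart and skeletal muscle that binds filamin, was about 4-fold higher in gastrocnemius. Cryab was 1.48-fold higher, and Hsph1 and Dnaja2 were 1.59-fold and 1.38-fold lower. Limma with Benjamini-Hochberg adjustment over all 4637 probe sets called 5 of the 50 tested members at an adjusted p under 0.05, of which 3 were higher and 2 lower in gastrocnemius. The same rule called 171 of all tested probe sets (3.69%), with 98 higher (2.11%) and 73 lower (1.57%). All 3 higher calls were small heat shock proteins and both lower calls were other members.

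The small heat shock proteins as a group lay higher in gastrocnemius. All 10 of their tested probe sets, from 6 genes, had a difference above 0, with a median of 0.44, and 7 had an unadjusted p under 0.05, against 22.3% of all tested probe sets. Of the 40 tested probe sets of the other members, 15 lay above 0, with a median of -0.07, and 8 had an unadjusted p under 0.05. Over all tested probe sets, 49% lay above 0. Without the 3 triceps arrays of low Ckm the median of the small heat shock proteins was 0.18, over 11 probe sets because Hspb7 1421289_at then passed the signal limit, and that of the other members 0.01. The 10 tested before still lay above 0, against 49.3% of all tested probe sets, though Hspb3 stood at 0.0022 and Hspb8 1417013_at at 0.03. Hspb7 1421289_at passed the limit only through its gastrocnemius signal, so its direction is not counted. The median of 0.18 does include it, at 2.22, and is drawn upward by it. Within NTg mice 9 of the 10 lay above 0, with a median of 0.57, against 52.1% of all tested probe sets. Within SOD1-G93A mice 10 of 10 did, with a median of 0.30, against 47.9%.

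**Figure D1:**
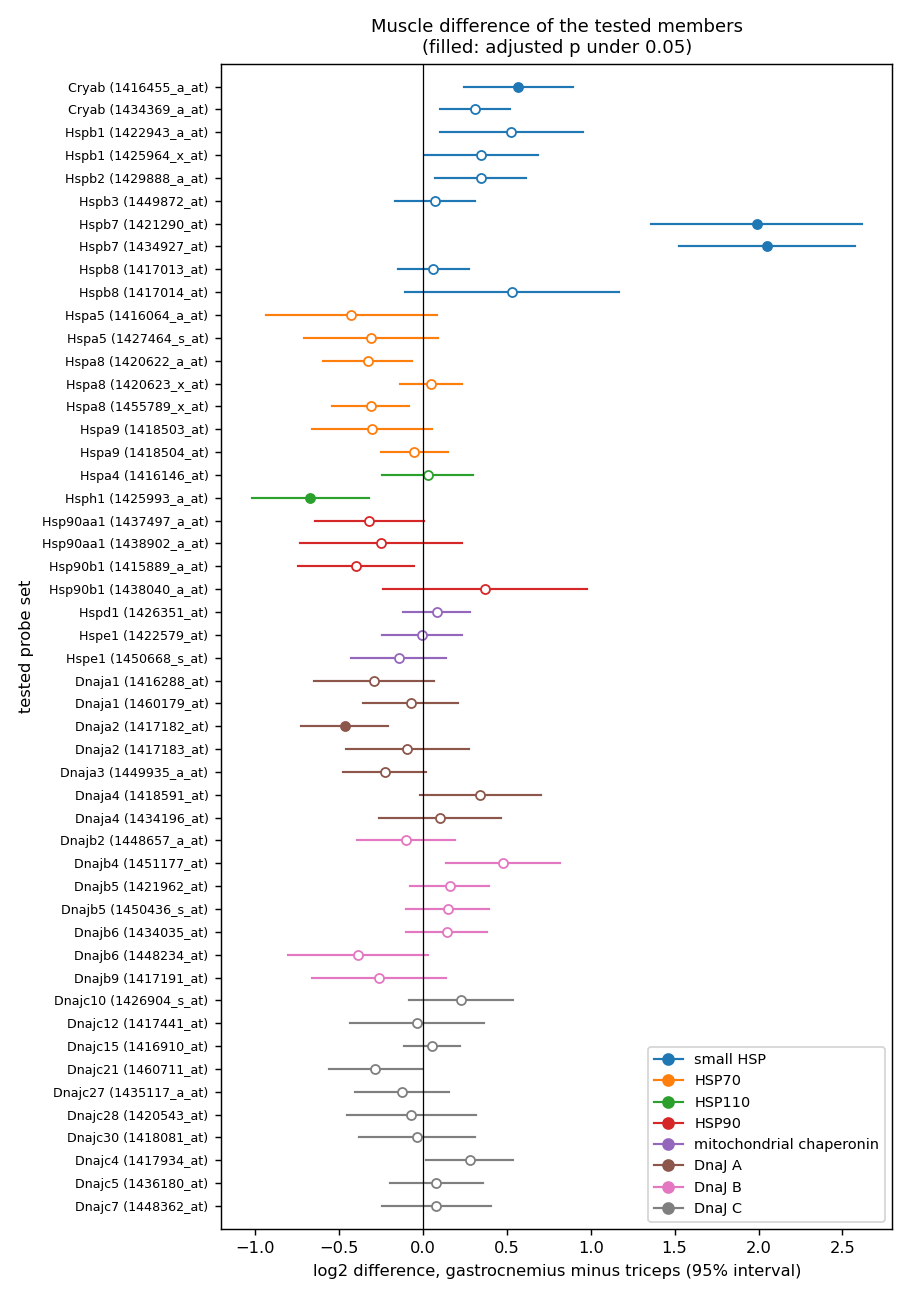
Log2 difference between gastrocnemius and triceps (x axis, with 95% interval) for the 50 tested member probe sets (y axis), coloured by role and filled where the adjusted p was under 0.05. The small heat shock proteins at the top all lie to the right of 0, led by the pair of Hspb7 probe sets near 2, while Hsph1 at -0.67 lies farthest to the left.

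Hspb7 was read by 3 probe sets. On 1434927_at the NTg gastrocnemius arrays stood at 10.55, 10.51, 9.70 and 10.28 and the NTg triceps arrays at 8.90, 7.18, 6.91 and 8.15. On the same probe set the SOD1-G93A gastrocnemius arrays stood at 10.26, 9.98, 10.25 and 10.03 and the SOD1-G93A triceps arrays at 8.78, 7.77, 9.12 and 8.34. All 8 gastrocnemius arrays thus lay above all 8 triceps arrays, and triceps was the more scattered muscle, with an SD of 0.81 against 0.28 (n = 8 each). The difference was 2.05 (SE 0.25, 4.15-fold, limma adjusted p = 4.3e-05). It ran from 1.13 to 3.34 over the 8 mice.

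The second Hspb7 probe set, 1421290_at, gave the same picture. NTg gastrocnemius arrays stood at 9.64, 10.03, 9.30 and 9.44 and NTg triceps arrays at 8.07, 5.17, 6.98 and 7.93. SOD1-G93A gastrocnemius arrays stood at 9.48, 9.17, 9.39 and 9.40 and SOD1-G93A triceps arrays at 7.97, 7.63, 8.25 and 7.94. The muscles did not overlap, and NTg triceps replicate 2 lay far below the other triceps arrays. The difference was 1.99 (SE 0.30, 3.97-fold, limma adjusted p = 0.00042).

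The third Hspb7 probe set, 1421289_at, fell under the signal limit and was not tested with the rest. Its gastrocnemius arrays ran from 6.98 to 8.36 with a median of 7.87, and its triceps arrays from 3.73 to 6.50 with a median of 5.77. These ranges did not overlap either. Probe sets of a gene read the same transcripts, so the 3 are repeat readings of Hspb7 and not independent genes. Of the 50 tested members, these 2 Hspb7 probe sets were the ones with all 8 gastrocnemius arrays above all 8 triceps arrays, and none lay wholly below. Over all tested probe sets, 1.25% lay wholly above and 0.388% wholly below.

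Hspb7 stayed called when any single array was left out, with adjusted p values up to 0.0017 and differences between 1.68 and 2.24. Without the 3 triceps arrays of low Ckm the differences were 2.06 on 1434927_at and 1.73 on 1421290_at. Within NTg mice alone they were 2.48 (limma adjusted p = 0.00048) and 2.57 (adjusted p = 0.0021), where 1.23% of all probe sets were called. Within SOD1-G93A mice alone they were 1.63 (adjusted p = 0.030) and 1.41 (adjusted p = 0.19), where 1.04% of all probe sets were called. The difference between the 2 genotypes in this respect was tested and is given with the genotype results.

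The muscles also differed in fibre type and in other cell markers. Slow fibre markers were higher in gastrocnemius for 10 of 10 genes, all called, with a median difference of 4.71. Their mean level ran from 10.59 to 11.17 in NTg gastrocnemius, from 10.05 to 10.98 in SOD1-G93A gastrocnemius, from 4.76 to 6.61 in NTg triceps and from 5.22 to 8.68 in SOD1-G93A triceps. Markers of skeletal muscle fibres at large also lay above 0 for 13 of 13 genes. Their median difference was 0.50, with 1 called, the myoglobin gene Mb. Of their 15 probe sets, all above 0, 8 had a limma unadjusted p under 0.05. Schwann cell markers were called higher in gastrocnemius for both genes tested, out of 8 on the list, and fibroblast and tendon markers for 3 of 8 tested. Of 4 adipocyte marker genes tested, out of 10 on the list, 1 was called higher in gastrocnemius, the lipoprotein lipase gene Lpl, by 0.69 and 0.99 on its 2 probe sets. No endothelial, immune or smooth muscle marker was called, but only 2 genes of each list were tested, out of 8, 9 and 5 in that order. The part of these markers in the differences of Hspb7 and the other small heat shock proteins was not tested.

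**Figure D2:**
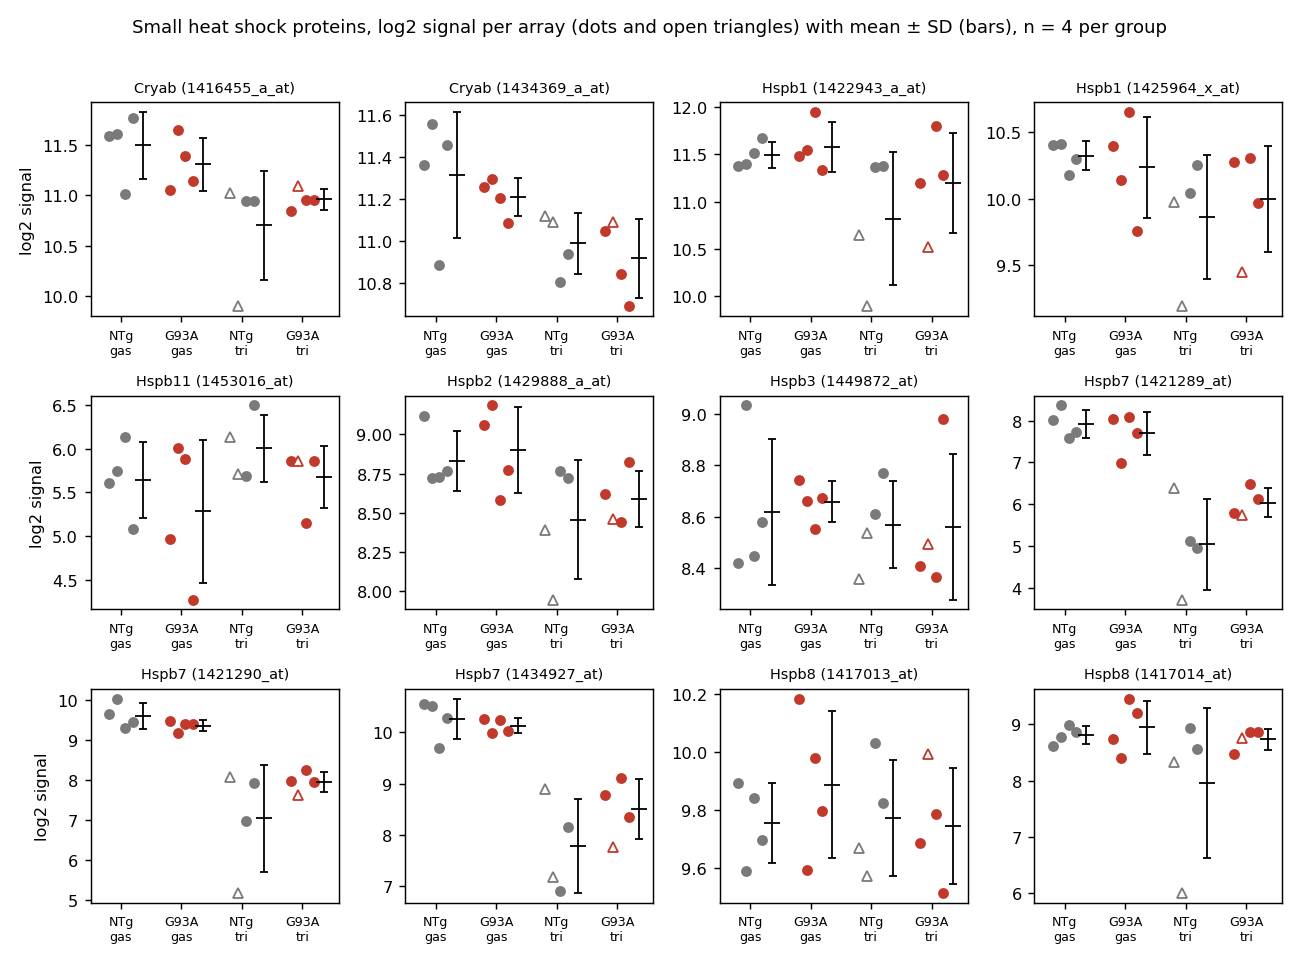
Log2 signal (y axis, with its own range in each panel) of the 12 small heat shock protein probe sets by group (x axis; gas, gastrocnemius; tri, triceps; grey, NTg; red, SOD1-G93A), 1 point per array, with mean and SD as bars. Open triangles are the 3 triceps arrays of low Ckm. The 3 Hspb7 panels separate the muscles completely, and the other panels overlap.

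Cryab, or alpha-B crystallin, protects desmin filaments in muscle. On 1416455_a_at its gastrocnemius arrays ran from 11.02 to 11.77 with a median of 11.49, and its triceps arrays from 9.90 to 11.10 with a median of 10.95. Gastrocnemius was the higher muscle in 8 of 8 mice, although the ranges overlapped. The difference was 0.57 (SE 0.15, 1.48-fold, limma adjusted p = 0.049). The call stood just inside the threshold and was lost without any of 11 of the 16 arrays, with adjusted p values up to 0.11. These were all 4 arrays of SOD1-G93A gastrocnemius, all 4 of SOD1-G93A triceps and replicates 1, 2 and 4 of NTg gastrocnemius. The second Cryab probe set, 1434369_a_at, had the same direction in 8 of 8 mice at 0.31 (SE 0.10, adjusted p = 0.095), which did not pass. Without the 3 arrays of low Ckm the Cryab differences were 0.47 (limma adjusted p = 0.0499) on 1416455_a_at and 0.40 (adjusted p = 0.055) on 1434369_a_at.

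Hspb1, the mouse HSP25 that guards actin filaments, did not pass the test. On 1422943_a_at its gastrocnemius arrays ran from 11.34 to 11.95 with a median of 11.50, and its triceps arrays from 9.88 to 11.80 with a median of 11.24. The 3 lowest triceps arrays were the 3 arrays of low Ckm, at 10.65, 9.88 and 10.51. The difference was 0.53 (SE 0.20, limma adjusted p = 0.15), and 0.14 (adjusted p = 0.64) without those arrays. The second probe set, 1425964_x_at, differed by 0.35 (adjusted p = 0.22), and by 0.11 (adjusted p = 0.74) without them. On 1422943_a_at Hspb1 was called when the replicate number was a fixed block (limma adjusted p = 0.041) and when replicates 1 and 2 were set against 3 and 4 (adjusted p = 0.043).

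Hspb2 and Hspb3 form a complex in muscle. Hspb2 ran from 8.58 to 9.18 in gastrocnemius and from 7.95 to 8.82 in triceps, a difference of 0.34 (SE 0.13, limma adjusted p = 0.14). Without the arrays of low Ckm it was 0.18 (adjusted p = 0.54). Hspb3 ran from 8.42 to 9.03 and from 8.36 to 8.98, a difference of 0.07 (SE 0.11, adjusted p = 0.73). The interval of the Hspb3 difference, -0.16 to 0.31, leaves little room for a change of the size seen for Hspb7.

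Hspb8, which works with the co-chaperone Bag3 to clear misfolded proteins, was read by a pair of probe sets. On 1417013_at the muscles overlapped almost fully, from 9.59 to 10.18 in gastrocnemius and from 9.51 to 10.03 in triceps, with a difference of 0.06 (SE 0.10, limma adjusted p = 0.75). On 1417014_at the difference was 0.53 (SE 0.30, adjusted p = 0.30), and NTg triceps replicate 2 lay at 6.01 where the other triceps arrays ran from 8.33 to 8.93. Without the 3 arrays of low Ckm the latter difference was 0.14 (adjusted p = 0.75). Hspb11, counted with the small heat shock proteins by its name alone, stayed under the signal limit. Its gastrocnemius arrays lay between 4.27 and 6.13 and its triceps arrays between 5.14 and 6.50.

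Of the 13 tested probe sets of HSP70, HSP110 and HSP90 genes, 3 lay above 0, with a median of -0.31 and 1 call. Without the 3 arrays of low Ckm, 5 lay above 0, the median was -0.05 and there were 0 calls by limma. Hsph1, the HSP110 that recharges HSP70, was that call. Its gastrocnemius arrays stood at 7.58, 7.63, 6.93 and 7.76 in NTg and at 7.49, 6.87, 7.09 and 7.21 in SOD1-G93A mice. Its triceps arrays stood at 8.15, 8.56, 7.70 and 7.70 in NTg and at 8.30, 8.19, 7.73 and 7.60 in SOD1-G93A mice. The ranges overlapped between 7.60 and 7.76, and triceps was the higher muscle in 7 of 8 mice.

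The Hsph1 difference was -0.67 (SE 0.17, limma adjusted p = 0.033). It was -0.47 (adjusted p = 0.20) without the 3 arrays of low Ckm, which are 3 of the 4 highest triceps arrays, and the call ended. Leaving out 1 array ended it for 10 of 16 arrays, with adjusted p values up to 0.076. These were replicates 1 to 3 of NTg gastrocnemius, 2 to 4 of SOD1-G93A gastrocnemius, and 1 and 2 of each triceps group. The other HSP110 gene, Hspa4, differed by 0.03 (SE 0.13, adjusted p = 0.92), and by 0.16 (adjusted p = 0.64) without the arrays of low Ckm.

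Hspa8, the constitutive HSP70 of the cytosol, did not pass. Its brightest probe set, 1455789_x_at, ran from 10.68 to 11.35 in gastrocnemius and from 11.03 to 11.77 in triceps, and triceps was higher in 8 of 8 mice. The difference was -0.31 (SE 0.11, limma adjusted p = 0.11), and after quantile normalization -0.45 (adjusted p = 0.043). Its probe sets did not all say the same, since 1420622_a_at differed by -0.33 and 1420623_x_at by 0.05. Probe sets ending in x_at share probes with other transcripts, so they may read close relatives of Hspa8 as well.

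Hspa5, the HSP70 of the endoplasmic reticulum, ran from 7.92 to 9.16 in gastrocnemius and from 8.12 to 9.99 in triceps on 1416064_a_at, a difference of -0.43 (SE 0.24, limma adjusted p = 0.29). Its highest arrays, 9.99 and 9.26, were NTg triceps replicates 2 and 1, both of low Ckm, and without the 3 arrays of low Ckm the difference was -0.12. On its second probe set, 1427464_s_at, it was -0.31 and without those arrays -0.03. Hspa9, the mitochondrial HSP70, differed by -0.30 on 1418503_at and by -0.05 on 1418504_at and did not pass. Without the arrays of low Ckm the Hspa9 values were 0.0015 and -0.05. The inducible Hspa1b and the testis-type Hspa1l stayed under the signal limit in the mean, with group means between 4.22 and 5.57.

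HSP90 genes did not pass either. Hsp90b1, the HSP90 of the endoplasmic reticulum, ran from 7.55 to 8.15 in gastrocnemius and from 7.60 to 8.83 in triceps on 1415889_a_at, a difference of -0.40 (SE 0.16, limma adjusted p = 0.16). Its 3 highest arrays, 8.83, 8.61 and 8.56, were the 3 of low Ckm, and without them the difference was -0.10. Its second probe set, 1438040_a_at, pointed the other way at 0.37 (SE 0.29), with NTg triceps replicate 2 down at 4.62, and stood at 0.12 without the 3 arrays. The stress-inducible cytosolic Hsp90aa1 differed by -0.32 on 1437497_a_at and by -0.25 on 1438902_a_at, with no call. These were -0.29 and 0.09 without the arrays of low Ckm.

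The mitochondrial chaperonin, a folding chamber of Hspd1 closed by the lid Hspe1, showed no called difference between the muscles. Hspd1 ran from 9.97 to 10.33 in gastrocnemius and from 9.74 to 10.43 in triceps, a difference of 0.08 (SE 0.10, limma adjusted p = 0.63). Hspe1 differed by -0.0036 and -0.14 on its probe sets. The 95% interval of the Hspd1 difference, -0.12 to 0.28, excludes a change of the size of Cryab. The Hspd1 difference was -0.05 without the arrays of low Ckm.

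J-domain proteins showed no common direction. Of their 24 tested probe sets, 11 lay above 0, with a median of -0.04 and 1 call (4.17%), near the 49% above 0 and the 3.69% called over all tested probe sets. Without the arrays of low Ckm, 16 lay above 0, with a median of 0.03 and 0 calls by limma. Dnaja2, a J-domain partner of HSP70 in the cytosol, was that call on 1417182_at. Its gastrocnemius arrays stood at 7.26, 6.86, 7.03 and 6.67 in NTg and at 7.09, 6.77, 7.08 and 7.35 in SOD1-G93A mice. Its triceps arrays stood at 7.35, 7.68, 7.27 and 7.31 in NTg and at 7.64, 7.40, 7.58 and 7.60 in SOD1-G93A mice. Triceps was higher in 8 of 8 mice, with an overlap between 7.27 and 7.35.

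The Dnaja2 difference was -0.47 (SE 0.12, limma adjusted p = 0.042), and the second probe set of the gene, 1417183_at, differed by -0.09 (SE 0.17, adjusted p = 0.78). The call on 1417182_at ended without the 3 arrays of low Ckm, at -0.44 (adjusted p = 0.14). It also ended without any of 12 single arrays, with adjusted p values up to 0.086, namely replicates 2 to 4 of NTg gastrocnemius, 1 and 2 of NTg triceps, 1 to 3 of SOD1-G93A gastrocnemius and 1 to 4 of SOD1-G93A triceps.

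Of the other J-domain proteins, Dnajb4 came closest to the threshold. Its gastrocnemius arrays ran from 7.87 to 8.70 and its triceps arrays from 7.47 to 8.52, with gastrocnemius higher in 8 of 8 mice. The difference was 0.48 (SE 0.16, limma adjusted p = 0.11), and 0.57 (adjusted p = 0.066) without the arrays of low Ckm. The brightest probe set of each class did not pass. Dnaja3, a mitochondrial J-domain protein, differed by -0.23 (adjusted p = 0.25), Dnajb5 by 0.15 on 1450436_s_at (adjusted p = 0.47) and Dnajc15, which sits at the mitochondrial import motor, by 0.05 (adjusted p = 0.72). These were -0.11, 0.04 and -0.0079 without the arrays of low Ckm.

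The muscle comparison was also run with the mouse as a random block, since both muscles of a mouse varied together. This raised the number of calls over all probe sets from 171 to 331 and that of members from 5 to 7. The additional 2 were Cryab 1434369_a_at (limma adjusted p = 0.041) and Dnajb4 (adjusted p = 0.047). Hspb7 1434927_at then stood at an adjusted p of 6.1e-06.

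**Figure D3:**
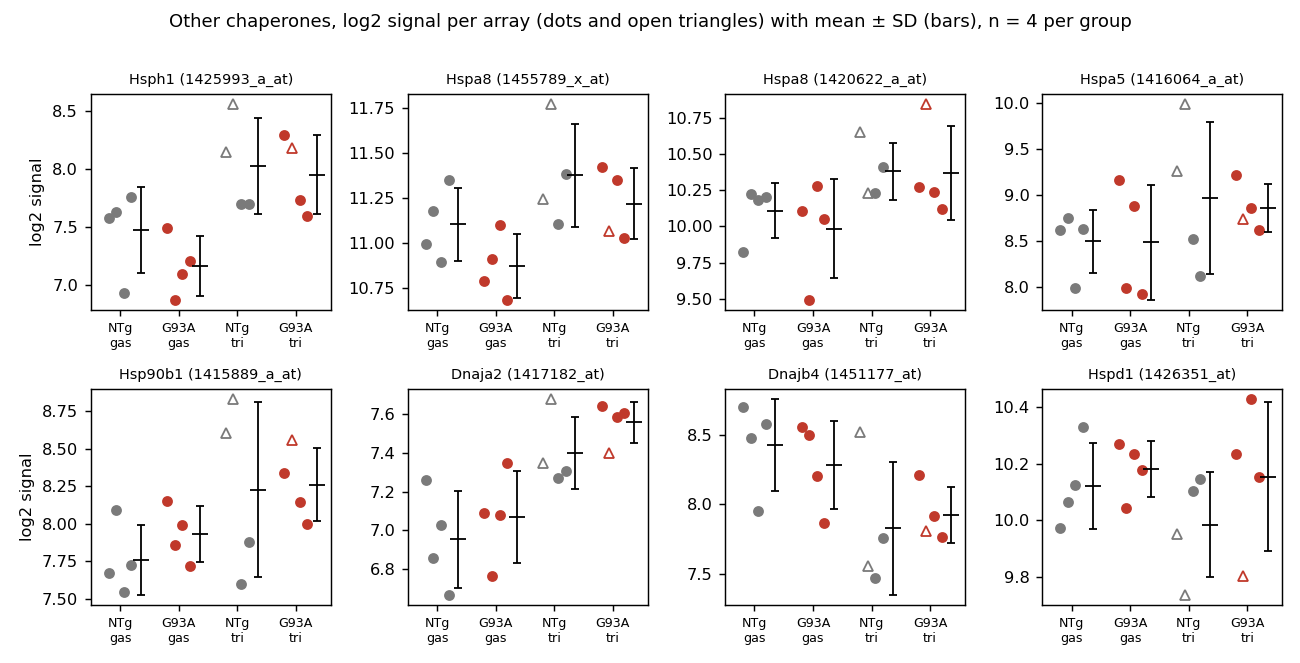
Log2 signal (y axis, with its own range in each panel) of 8 probe sets of other members by group (x axis; grey, NTg; red, SOD1-G93A), 1 point per array, with mean and SD as bars. Open triangles are the 3 triceps arrays of low Ckm, which hold the 3 highest values of Hsp90b1 and the 3 lowest of Hspd1.

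Whether the transgene altered these chaperones before symptoms is the question of the genotype comparison. No member passed the test in gastrocnemius, in triceps, in both muscles together, or when the transgene's effect in gastrocnemius was set against that in triceps. The same held for all 4637 tested probe sets (0% called in each). At an unadjusted p under 0.05, limma gave 0 of 50 members in gastrocnemius against 2.22% of all probe sets, 2 in triceps against 2.54%, 1 in both muscles together against 1.83% and 1 for the difference of the effects against 1.85%. The members' counts were thus near the background.

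For the median member, the 95% interval reached 1.36-fold to either side of the estimate within a muscle and 1.27-fold over both muscles. The interval excluded a 2-fold change in either direction for 47 of the 50 tested probe sets in gastrocnemius and for 45 in triceps.

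**Figure D4:**
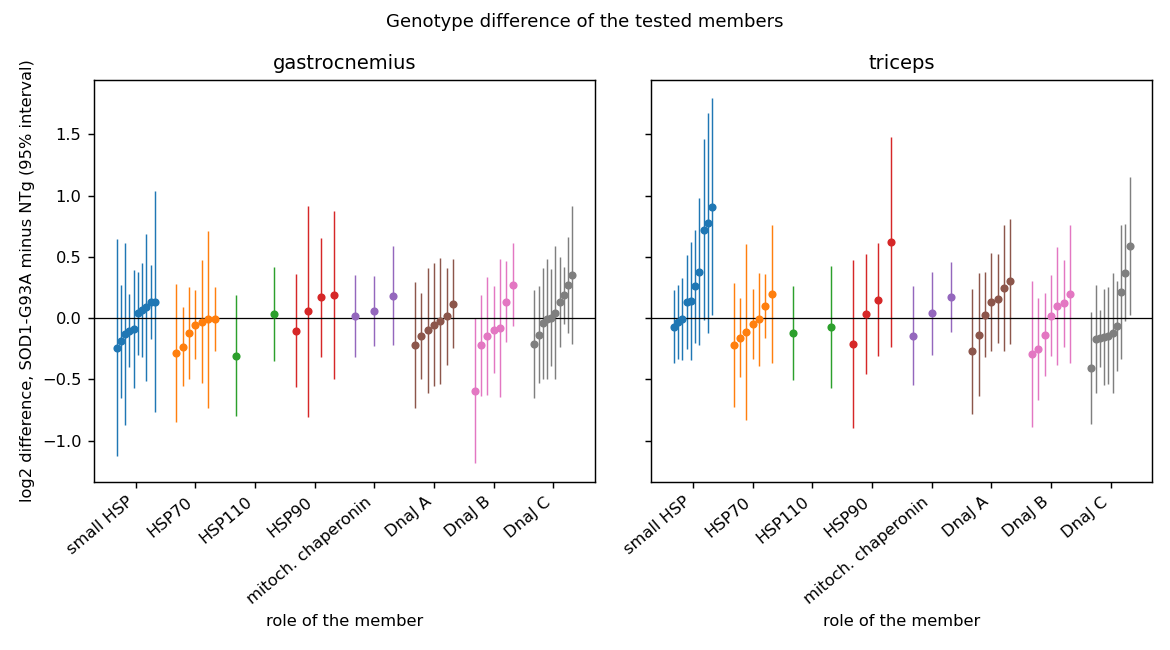
Log2 difference between SOD1-G93A and NTg mice (y axis, with 95% interval) in gastrocnemius (left) and triceps (right) for the 50 tested member probe sets, ordered by size within each role (x axis). No probe set was called, and the widest upward estimates are small heat shock proteins in triceps, up to 0.91.

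The small heat shock proteins had a median genotype difference of -0.02 in gastrocnemius, with 5 of 10 probe sets above 0. In triceps it was 0.20, with 7 of 10 above 0, and without the 3 arrays of low Ckm it was -0.01. Over both muscles it was 0.07, with 9 of 10 above 0. Without those arrays it was -0.02, with 5 of 11 above 0, against 51.1% of all tested probe sets. The genotype difference of gastrocnemius minus that of triceps lay above 0 for 2 of 10, with a median of -0.26, against 43.8% of all tested probe sets. Without the 3 arrays of low Ckm it lay above 0 for 5 of 11, with a median of -0.09, against 46.5% of all. Over all tested probe sets, 47.1% lay above 0 in gastrocnemius, 54.4% in triceps and 51.3% over both muscles. The other members had medians of -0.02 in gastrocnemius and -0.03 in triceps. Their triceps values moved without the 3 arrays of low Ckm, with no call. HSP70, HSP90 and HSP110 probe sets then lay above 0 for 11 of 13, up from 5, with a median of 0.14. J-domain probe sets did so for 13 of 24, up from 12, with a median of 0.07, against 52.6% of all.

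Hspb7 had the widest genotype difference of the small heat shock proteins, and it lay in triceps. On 1421290_at the mean was 7.04 ± 1.33 in NTg and 7.95 ± 0.25 in SOD1-G93A triceps (SD, n = 4 each), with overlapping arrays, since NTg reached 8.07 and SOD1-G93A began at 7.63. The difference was 0.91 (SE 0.42, limma unadjusted p = 0.045, adjusted p = 0.99). It was 0.29 to 1.25 when 1 array was left out, with the lowest value without NTg triceps replicate 2. On 1434927_at it was 0.72 (SE 0.35, unadjusted p = 0.056), and 0.43 to 1.09 when 1 array was left out, with the lowest value without NTg triceps replicate 3. Without the 3 arrays of low Ckm the 2 probe sets moved in opposite directions, to 0.60 on 1421290_at and to 1.22 on 1434927_at.

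In gastrocnemius the same Hspb7 probe sets differed by -0.24 and -0.13 between the genotypes. The difference between the muscles in this effect was -1.15 (SE 0.60) on 1421290_at and -0.85 (SE 0.50) on 1434927_at, both with a limma adjusted p of 0.999. Leaving out 1 array brought the former to -0.53, without NTg triceps replicate 2, and the latter to -0.56, without NTg triceps replicate 3. The slow fibre markers had a median genotype difference of 0.77 in triceps and of -0.16 in gastrocnemius, with none called. Their part in the Hspb7 values was not tested.

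Hspb8 had a triceps difference of similar size on 1417014_at, 0.78 (SE 0.43, limma unadjusted p = 0.087), which was 0.13 without NTg triceps replicate 2 and -0.02 without the 3 arrays of low Ckm. On its other probe set, 1417013_at, it was -0.03. Cryab 1416455_a_at differed by -0.19 (SE 0.22) in gastrocnemius and by 0.26 (SE 0.22) in triceps, the latter -0.03 without the arrays of low Ckm. Hspb1 1422943_a_at stood at 11.38, 11.40, 11.51 and 11.68 in NTg and at 11.48, 11.54, 11.95 and 11.34 in SOD1-G93A gastrocnemius, a difference of 0.09 (SE 0.29). In triceps Hspb1 differed by 0.38 (SE 0.29), and by 0.06 without the arrays of low Ckm. Over both muscles Hspb8 1417014_at had the widest difference of these genes, 0.45 (SE 0.33, limma adjusted p = 0.997), which was 0.05 without the 3 arrays of low Ckm.

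Among the other members, Dnajc12, a J-domain partner of HSP70 for aromatic amino acid hydroxylases, had the smallest p over both muscles. Its NTg arrays stood at 6.96, 7.26, 6.04 and 7.03 in gastrocnemius and at 7.17, 6.61, 6.48 and 6.70 in triceps. Its SOD1-G93A arrays stood at 7.46, 6.49, 7.36 and 7.38 in gastrocnemius and at 7.11, 7.14, 7.58 and 7.49 in triceps. The groups overlapped in both muscles, in triceps only through NTg replicate 1. The difference was 0.47 over both muscles (SE 0.20, limma unadjusted p = 0.033, adjusted p = 0.997), 0.35 in gastrocnemius and 0.59 in triceps (SE 0.27, unadjusted p = 0.042). Without the 3 arrays of low Ckm, which include NTg triceps replicate 1, it was 0.51 over both muscles and 0.80 in triceps, with no call.

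Dnajb6, which holds back aggregation and is mutated in a limb-girdle muscular dystrophy, gave opposite signs on its 2 probe sets. On 1448234_at NTg gastrocnemius stood at 7.40, 7.33, 6.90 and 6.70 and SOD1-G93A gastrocnemius at 7.00, 6.66, 6.70 and 5.60. The groups overlapped between 6.70 and 7.00, and the difference was -0.59 (SE 0.28, limma unadjusted p = 0.050, adjusted p = 0.999). It was -0.30 without SOD1-G93A replicate 4, the array at 5.60. On 1434035_at it was 0.27 (SE 0.16) in the same muscle.

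Dnajc15 differed in opposite directions in the muscles, by 0.18 (SE 0.11) in gastrocnemius and by -0.16 (SE 0.11) in triceps. The triceps value was -0.25 without the arrays of low Ckm, with no call. The triceps arrays of Dnajc15 stood at 9.24, 9.20, 9.44 and 9.41 in NTg and at 9.17, 9.10, 9.19 and 9.17 in SOD1-G93A mice. These groups did not overlap. It was the only tested member of which this was true in triceps, against 0.949% of all tested probe sets, and in gastrocnemius there was none, against 2.7%. The difference between the muscles was 0.35 (SE 0.16, limma unadjusted p = 0.040, adjusted p = 0.999).

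The other members nearest to the threshold also failed it. In gastrocnemius they were Dnajc5, the cysteine string protein of nerve endings, at 0.27 (SE 0.19), Hspa8 1455789_x_at at -0.23 (SE 0.15) and Hsph1 at -0.31 (SE 0.24). In triceps they were Dnajc27 at 0.37 (SE 0.19), Dnajc7 at -0.41 (SE 0.22), Hsp90b1 1438040_a_at at 0.62 (SE 0.41) and Dnajb2 at -0.25 (SE 0.20). Without the arrays of low Ckm the Hsp90b1 value was 0.01 and that of Dnajb2 -0.12. Hspd1 differed by 0.06 (SE 0.13) in gastrocnemius and by 0.17 (SE 0.13) in triceps. Dnajc27 differed by -0.13 in gastrocnemius, and the difference between its effects in the muscles was -0.50 (SE 0.27).

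In all, 21 member probe sets stayed under the signal limit, and 12 genes had no tested probe set. Besides Hspb11, Hspa1b and Hspa1l these were Dnajb1, Dnajb11, Dnajb12, Dnajc1, Dnajc2, Dnajc3, Dnajc9, Dnajc14 and the HSP70 co-factor Hspbp1. Hspbp1 lay close under the limit, between 6.48 and 6.94 in gastrocnemius and between 6.23 and 7.10 in triceps. The strongly heat-inducible Hspa1b and Dnajb1 were thus described by their levels alone, with group means of Dnajb1 between 5.55 and 5.94.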

How the data were processed

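Total RNA of each muscle had been purified, and biotin-labelled cRNA made from 4 ug of it was read on Affymetrix mouse expression arrays, per the labels' protocols. The authors deposited log2 values, 1 per array for each probe set. The tool MAS5 is named in the submitters' processing notes, without a version, and the sources used here do not give its scaling or how the 7729 probe sets were chosen. Base 2 was read from the value range of -0.77 to 14.81. The values were used as deposited, without further normalization. Arrays have no read depth, and their number limits the precision.

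Group means were fitted with limma 3.58.1 (R 4.3.3) to all probe sets with a mean above the 40th percentile (6.75), with an intensity trend and Benjamini-Hochberg adjustment over all 4637. A call is an adjusted p under 0.05. The genotype comparison over both muscles took the mouse as a random block (correlation 0.185). Equal numbers pair the muscles of a mouse, because the design names 4 mice per genotype with both muscles. Their deviations correlated at 0.136 to 0.388 in 8 of 8 pairs. Scripts were tested on simulated data.

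The members and the lists were chosen with earlier results of these data known. Genes described in full are every small heat shock protein, every called member, the 3 members of smallest p per direction in each genotype comparison and the brightest of each role. Symbols come from the platform annotation. One probe set with several symbols (Dnajc19) was left out. Alternatives were quantile normalization, other limits for dim probe sets, no trend, replicate or block terms, each muscle comparison within a genotype, 1 probe set per gene, and leaving out single arrays or the 3 of low Ckm.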

Additional observations from a re-analysis of the deposited data

Results flagged for a closer look

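In 112 groups of 4 arrays of the probe sets described above, 5 held an array whose distance from the nearest other passed Dixon's 95% critical value. Chance gives about 5% of groups, so this number is near it, and over all members 19 of 284 groups did so.

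Cryab 1416455_a_at stood at 9.90 in NTg triceps replicate 2, where the other 3 arrays ran from 10.94 to 11.03. Dnajc5 1436180_at stood at 7.42 in the same array, against 7.08 to 7.12. Hspb2 stood at 9.12 in NTg gastrocnemius replicate 1, against 8.72 to 8.77. Dnajc12 stood at 6.49 in SOD1-G93A gastrocnemius replicate 2, against 7.36 to 7.46. Hspb11, under the signal limit, stood at 5.14 in SOD1-G93A triceps replicate 3, against 5.86 in each of the others.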

How the results depend on the processing

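All 4 genotype comparisons gave 0 called members under every alternative run. In the muscle comparison, 5 called members became 8 with the replicate number as a fixed block, 8 with replicates 1 and 2 set against 3 and 4 as a term, 2 within NTg mice, 1 within SOD1-G93A mice, and 2 to 6 when 1 array was left out. The calls over all probe sets rose from 171 to 408 and 436 under the former 2 terms. They were 57 within NTg mice, 48 within SOD1-G93A mice, and 95 to 273 when 1 array was left out. With the mouse as a random block there were 7 member calls, of 331 over all probe sets. There were 4 after quantile normalization (158 over all), without a limit for dim probe sets (169) and with a limit at the 60th percentile (145). Also 4 were called without the trend (154) and without the 3 arrays of low Ckm (108). The counts without a limit and without the 3 arrays include Hspb7 1421289_at, which the main test left out for its low signal. So do those without NTg triceps replicate 2, 3 or 4. Without the 3 arrays of low Ckm, the calls were Hspb7 on 3 probe sets and Cryab 1416455_a_at. Between the genotypes, equal replicate numbers name different mice. Their arrays correlated at 0.000647 to 0.222 in gastrocnemius and at 0.0335 to 0.373 in triceps. The triceps values reach into the 0.136 to 0.388 found between the muscles of a mouse. Whether equal numbers share a source of variation was not tested. Cryab 1416455_a_at lost its call without the trend (limma adjusted p = 0.067), without the limit for dim probe sets (0.061) and after quantile normalization (0.10), and Dnaja2 after quantile normalization (0.067) and without the limit (0.055). Hspb8 1417013_at turned to -0.018 within NTg mice. With 1 probe set per gene the medians of the muscle difference were 0.44 for small heat shock proteins and -0.06 for the other members. The cause of these changes was not tested.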

Other observations

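Partners of the members outside the heat shock and J-domain names did not differ by muscle or genotype past the threshold. Of 35 HSP70 and HSP90 co-chaperones on a list, 22 genes were tested with 25 probe sets, 0 were called in any comparison by limma, and 4 had an unadjusted p under 0.05 between the muscles, with a median difference of -0.05. The TRiC chaperonin, which folds actin and tubulin, and prefoldin were tested with 25 probe sets of 13 genes. Of these, 5 lay above 0 between the muscles, with a median of -0.09, 0 calls and 3 at an unadjusted p under 0.05. Endoplasmic reticulum chaperones and folding enzymes had a median of -0.11 over 11 probe sets, with 0 calls and 2 at an unadjusted p under 0.05. Mitochondrial chaperones and proteases had a median of 0.00 over 10 probe sets, with 0 calls and 1 at an unadjusted p under 0.05. These shares, 16% of the co-chaperones, 12% of TRiC and prefoldin, 18.2% of the endoplasmic reticulum list and 10% of the mitochondrial list, lay below the 22.3% of all tested probe sets with an unadjusted p under 0.05, and 49% of all lay above 0. Of the regulators of the heat shock response, Hsbp1 alone was tested, and its 2 probe sets differed by 0.11 and 0.21, with no call.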
